A study of Homo sapiens with 21 samples.

Results

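The EGFR ligands examined were AREG, EREG, HBEGF, TGFA, BTC and EPGN, chosen by gene symbol as ligands of the EGFR family apart from EGF and the neuregulins, and all 6 were among the 20111 genes listed. The libraries came from polyadenylated RNA of PC-9 cells, taken in 2 experiments with 3 replicates in each of 7 groups and 21 libraries in all. PC-9 is a human lung adenocarcinoma line, and every group carried its EGFR deletion delE746-A750 (the last residue in the genotype label differs from sample to sample, and the libraries were taken as 1 line). The first experiment held untreated parental cells and the EGFR-low and EGFR-high cells that 6 rounds of sorting for the 5 to 10% of cells with the lowest or highest EGFR staining had produced from them, with RNA collected 24 h after seeding. The second held the sorted EGFR-low and EGFR-high cells after 72 h with DMSO, the solvent, or with 1 µM vorinostat (SAHA), an inhibitor of histone deacetylases. The populations were sorted bulk cultures of 1 line, and parental cells were not part of the second experiment. In bulk RNA, fewer cells of a type and less RNA per cell cannot be told apart.

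The ligands are made as membrane-bound precursors, and metalloproteases such as ADAM17 cut them free so that they can act on the same or on neighbouring cells. Once bound, they join EGFR with a second ERBB receptor and switch on its kinase, which feeds the ERK cascade. TGFA, HBEGF and BTC bind with high affinity, whereas AREG, EREG and EPGN bind weakly. HBEGF, BTC and EREG also act on ERBB4. In lung and other epithelia the ligands serve growth and wound repair, and tumour cells often make several of them at once.

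The genes fall on 3 chromosomes. AREG, EREG, BTC and EPGN sit in a cluster on chromosome 4, HBEGF is on chromosome 5 and TGFA on chromosome 2. AREG and EREG varied together across libraries, as did HBEGF and TGFA, and the 250 bases before their outermost RefSeq start are shown for these 4 genes (RefSeq, GRCh38.p14, 5′ to 3′ on the gene's strand) so that each pair can be compared. The capitals mark matches on either strand to TATAAA (the TATA box), CCAAT (the CCAAT box), GGGCGG (the GC box), TGACGTCA (the cAMP response element), TGANTCA (AP-1), CACGTG (the E-box) and GGAATG (TEAD). Where GGGCGG matches meet or overlap they form 1 run of capitals.
AREG, chr4:74444886-74445135, plus strand: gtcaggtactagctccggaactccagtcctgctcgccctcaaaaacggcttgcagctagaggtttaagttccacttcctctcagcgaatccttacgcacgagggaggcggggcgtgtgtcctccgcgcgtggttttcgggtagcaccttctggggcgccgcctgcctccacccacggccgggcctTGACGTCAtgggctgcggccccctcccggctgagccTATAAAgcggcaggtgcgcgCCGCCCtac
EREG, chr4:74364895-74365144, plus strand: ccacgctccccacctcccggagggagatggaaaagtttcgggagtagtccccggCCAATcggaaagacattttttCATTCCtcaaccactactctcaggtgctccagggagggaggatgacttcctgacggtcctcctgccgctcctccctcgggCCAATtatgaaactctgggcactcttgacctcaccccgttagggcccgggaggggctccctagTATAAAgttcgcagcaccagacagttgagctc
HBEGF, chr5:140346604-140346853, minus strand: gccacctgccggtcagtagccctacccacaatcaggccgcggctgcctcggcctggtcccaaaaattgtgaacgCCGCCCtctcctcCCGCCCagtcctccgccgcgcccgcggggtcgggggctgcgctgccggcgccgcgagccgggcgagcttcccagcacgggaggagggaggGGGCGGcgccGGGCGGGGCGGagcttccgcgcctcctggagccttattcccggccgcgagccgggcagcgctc
TGFA, chr2:70553827-70554076, minus strand: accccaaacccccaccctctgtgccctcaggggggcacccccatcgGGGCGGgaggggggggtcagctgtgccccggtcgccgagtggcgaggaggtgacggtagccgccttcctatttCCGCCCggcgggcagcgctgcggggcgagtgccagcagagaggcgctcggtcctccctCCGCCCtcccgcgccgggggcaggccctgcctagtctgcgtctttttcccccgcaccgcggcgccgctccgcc

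AREG and EREG each held a TATAAA, beginning 29 and 32 bases before the start, a motif present in 10.7% of the 35116 promoters of the same length. AREG also held TGACGTCA 65 bases before its start (1.65% of promoters) and 1 match to GGGCGG, on the opposite strand, beginning 9 bases before the start. EREG held 2 CCAAT matches (32.0% of promoters) and 1 match to GGAATG (11.9%). HBEGF and TGFA held no TATAAA. They held 5 and 3 matches to GGGCGG (42.6% of promoters), and their windows had 76.4 and 75.6% G and C, against 65.2% for AREG and 58% for EREG. RefSeq lists 2 starts for TGFA. The window before the other start, not shown, held none of the motifs and had 64% G and C, so the TGFA values depend on the start chosen. TGANTCA (6.57% of promoters) and CACGTG (6.34%) were found in none of these 4 windows. BTC held none of the motifs, and EPGN held 1 TATAAA and 1 CCAAT. These are matches of letters in a fixed window, and no binding was measured.

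Levels are given as FPKM, a fragment count divided by transcript length and by library size. This scale lets genes be set beside each other per length. How many fragments stand behind each value is unknown, and counting intervals are therefore left out. Of the 6 ligands, 5 reached 1 FPKM in at least 3 libraries of each experiment and were tested. EPGN did not, being listed at 0 in 14 of the 21 libraries and nowhere above 0.291 FPKM. A change was called when limma, fitted to log2(FPKM + 1) over all tested genes, gave a Benjamini-Hochberg adjusted p under 0.05. Log2 fold changes on this scale understate those of genes near or under 1 FPKM. The smallest p of an exact permutation test (two-sided) with 3 libraries in each group is 0.1. AREGB, which RefSeq gives as another name of AREG, was listed as a gene of its own at 0.739 to 1.04 times the AREG level in the same library. Reads of near-identical copies can be split between them, which makes the level of AREG uncertain.

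Some libraries stood apart. In the second experiment the first principal component of all tested genes other than the ligands and AREGB held 82.5% of the variance and separated EGFR-low from EGFR-high. On it EGFR-low DMSO replicate 1 (25.6, other EGFR-low libraries 61.5 to 66.7) and EGFR-high DMSO replicate 3 (-26.3, other EGFR-high libraries -67.1 to -59.4) lay between the populations. Replicate 1 of both vorinostat groups lay apart on the second component (47.5 for EGFR-high and 23.1 for EGFR-low), with 24.2 and 22.2% of the summed FPKM in mitochondrial genes. The libraries labelled EGFR-low also differed between the experiments. Their mean levels correlated at 0.82 (untreated against DMSO, 11118 genes), against 0.96 for EGFR-high. Untreated EGFR-low cells correlated more highly, at 0.93, with EGFR-high cells with DMSO. EGFR-low cells with DMSO correlated at 0.83 with untreated EGFR-high cells. In the libraries labelled EGFR-low NKX2-1, the lung lineage factor, was at 25.6 to 51.1 FPKM with DMSO and at most 0.069 untreated. NKX2-1 reached 11.1 FPKM in EGFR-high DMSO replicate 3. Of the other lung lineage markers, NAPSA was at 0.524 to 3.41 FPKM in EGFR-low cells with DMSO and at most 0.125 untreated. SFTPB went the other way near 0 in EGFR-low cells, at most 0.0365 FPKM with DMSO and 0.0508 to 0.0734 untreated. SFTPA1 stayed under 0.1 in the 21 libraries. Whether the labels of the in-between libraries hold, and whether the libraries labelled EGFR-low hold the same population in both experiments, was not tested, so the values of the second experiment describe the libraries as labelled. EGFR itself, the sorted marker, was at 26.5 to 60.6 FPKM in untreated EGFR-low and 161 to 269 in EGFR-high libraries, and at 17.7 to 43.3 against 83.3 to 152 with DMSO. With vorinostat EGFR was at 16.1 to 19.7 FPKM in EGFR-low and 101 to 207 in EGFR-high libraries, overlapping with DMSO in both populations. Summed epithelial markers were at 1552 to 4045 FPKM in the 21 libraries. The EGFR-high sums exceeded the EGFR-low sums without overlap, at 3134 to 4045 against 1801 to 3015 FPKM untreated. They were 2681 to 3207 against 1605 to 1864 FPKM with DMSO and 2739 to 3627 against 1552 to 1746 with vorinostat. With DMSO KRT8, KRT18 and KRT19 followed the sum, whereas EPCAM and KRT7 overlapped. CDH1 went the other way with DMSO, at 116 to 138 FPKM in EGFR-low and 48.0 to 76.4 in EGFR-high libraries. Of 6 fibroblast markers 1 reached 1 FPKM, COL1A1 at 1.02 to 5.87, and DCN was at 0 throughout. Of the immune markers, CD68 was at 14.5 to 39.3 FPKM in the 21 libraries, whereas PTPRC and CD3E stayed under 1. CD14 was at 0.739 to 1.67 FPKM in EGFR-low cells with DMSO and, overlapping, at 1.42 to 3.92 with vorinostat. Untreated libraries had CD14 at 0.241 FPKM or less. Of 3 endothelial markers KDR was at 3.57 to 3.79 FPKM in EGFR-low cells with DMSO, against at most 0.881 in EGFR-high cells with DMSO and 0.0128 untreated. CDH5, at 2.197 to 8.30 FPKM in the 21 libraries, went the other way in EGFR-low cells. It was at 5.59 to 8.30 FPKM untreated and 3.57 to 4.43 with DMSO, where it overlapped with EGFR-high cells (3.06 to 4.83). VWF stayed under 0.1. The part of these genes in the differences between the populations was not tested.

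Among untreated cells, TGFA and HBEGF made up most of the ligand transcripts in every group. TGFA held 41.8% of the summed FPKM of the 6 ligands in parental, 46.0% in EGFR-low and 48.5% in EGFR-high cells, and HBEGF 35.3, 32.1 and 36.4% (means of 3). The 6 ligands together reached 46.9 ± 4.73 FPKM in parental, 28.1 ± 1.23 in EGFR-low and 37.8 ± 4.85 in EGFR-high cells (SD, n = 3). TGFA and HBEGF did not overlap with each other in either sorted population, where TGFA was the higher, and overlapped in parental cells. EREG came next, above AREG without overlap in all 3 groups, and it overlapped with BTC in EGFR-high cells. AREG and BTC overlapped in all 3 groups.

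**Figure D1:**
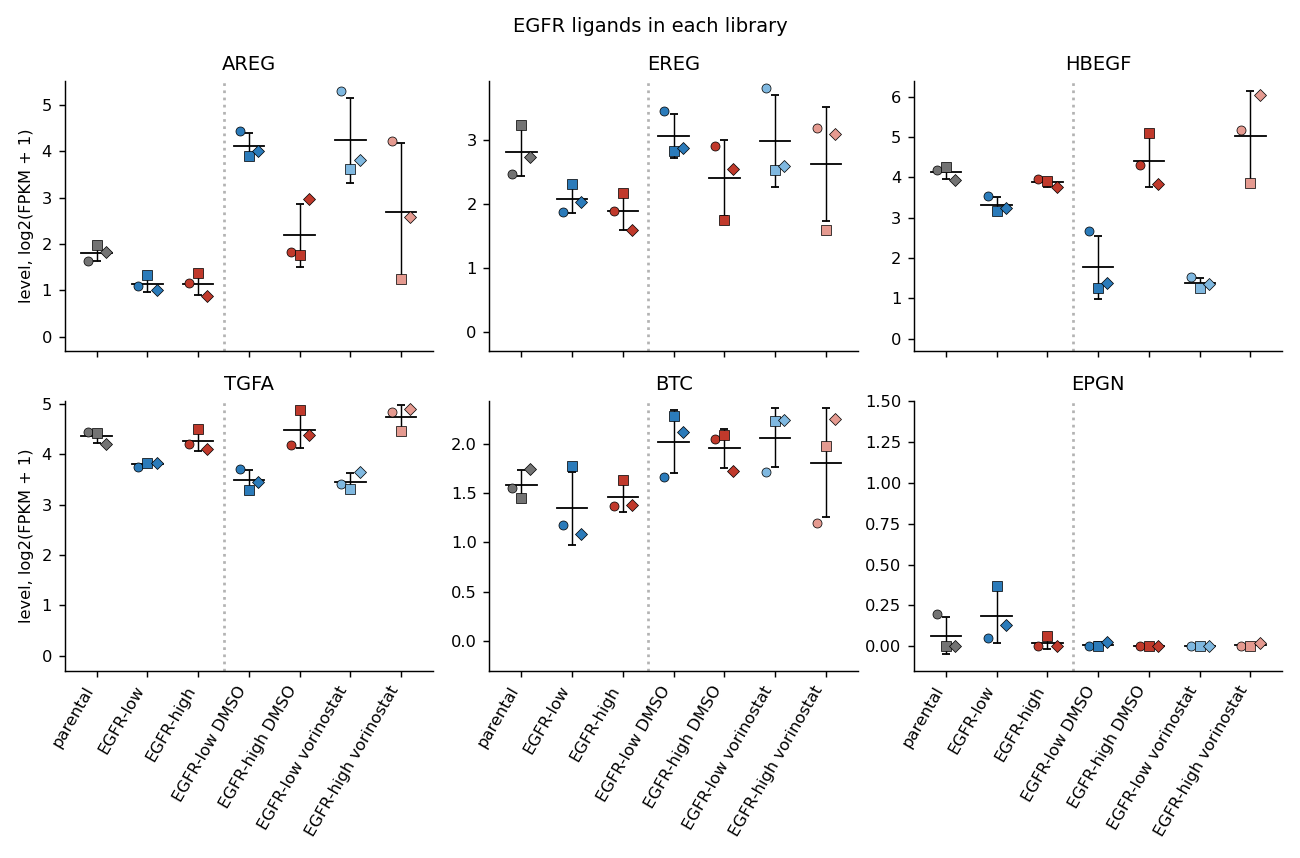
Level of each EGFR ligand as log2(FPKM + 1) on the vertical axis in the 7 groups on the horizontal axis, with circles, squares and diamonds for replicates 1, 2 and 3, black bars for the mean and whiskers for the SD; a dotted line separates the 2 experiments and the scales differ between panels. In both experiments the EGFR-low libraries lie below their EGFR-high counterparts in HBEGF and TGFA, AREG has its highest group means in the EGFR-low cells of the second, where EGFR-high vorinostat replicate 1 (17.7 FPKM) lies among them, and EPGN stays near 0.

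The comparison of untreated EGFR-low with EGFR-high cells asks whether the sorted populations, which differ in the receptor, also differ in its ligands. HBEGF, the heparin-binding ligand, was at 10.6, 7.998 and 8.38 FPKM in EGFR-low and at 14.6, 14.0 and 12.5 FPKM in EGFR-high libraries. TGFA was at 12.4, 13.2 and 13.2 FPKM in EGFR-low and at 17.4, 21.6 and 16.1 FPKM in EGFR-high libraries. Every EGFR-low library lay below every EGFR-high library for these 2 ligands (exact permutation p = 0.1 for each, n = 3), as it did for 11.2% of the genes tested. The log2 fold change was -0.56 ± 0.219 for HBEGF (SE, limma adjusted p = 0.27) and -0.47 ± 0.215 for TGFA (SE, adjusted p = 0.377), and neither was called. Their 95% intervals, not adjusted for the number of genes, ran from -1.04 to -0.078 and from -0.94 to 0.0067.

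AREG, EREG and BTC overlapped between the untreated sorted populations. AREG, whose product is also called amphiregulin, was at 1.15, 1.53 and 1.00 FPKM in EGFR-low and at 1.24, 1.60 and 0.847 FPKM in EGFR-high libraries, a log2 fold change of 0.01 (95% interval -0.44 to 0.45, limma adjusted p = 0.996). EREG was at 2.67, 3.92 and 3.09 against 2.69, 3.47 and 2.02 FPKM (log2 fold change 0.19, interval -0.37 to 0.75). BTC was at 1.26, 2.41 and 1.12 against 1.58, 2.11 and 1.60 FPKM (-0.12, interval -0.60 to 0.37). EPGN was detected in all 3 EGFR-low libraries, at 0.0376, 0.291 and 0.0966 FPKM, and in EGFR-high libraries it was listed at 0 except for 0.0455 FPKM in replicate 2. In sum 0 of 5 tested ligands were called, where 3.81% of all tested genes were.

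Against parental cells, all 5 tested ligands had a lower mean in both sorted populations. Parental libraries had AREG at 2.09, 2.95 and 2.54 FPKM and EREG at 4.54, 8.33 and 5.66 FPKM, in both cases above every sorted library. HBEGF was at 17.3, 18.3 and 14.3 FPKM and TGFA at 20.7, 20.5 and 17.5 FPKM, above every EGFR-low library but overlapping with EGFR-high cells. BTC, at 1.93, 1.74 and 2.34 FPKM, overlapped with both. EGFR-low cells thus lay below parental cells without overlap for 4 ligands (8.02% of tested genes did so) and EGFR-high cells for 2 (6.02%).

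None of these differences was called. From parental to EGFR-low cells the log2 fold change was -0.82 ± 0.219 for HBEGF (SE, limma adjusted p = 0.111), -0.74 for EREG (0.256, adjusted p = 0.221), -0.66 for AREG (0.203, adjusted p = 0.167) and -0.56 for TGFA (0.215, adjusted p = 0.261), where 1.6% of all tested genes were called. From parental to EGFR-high cells it was -0.93 for EREG (95% interval -1.49 to -0.37) and -0.67 for AREG (-1.12 to -0.22), with adjusted p-values of 0.493 and 0.507 and 0.0708% of genes called. The median over the 5 ligands was -0.66 in EGFR-low cells, beside 0.06 over all tested genes, and -0.26 in EGFR-high cells, beside 0.07. Both comparisons share the parental libraries.

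In the second experiment the makeup of the ligands differed between the populations. With DMSO, AREG held 40.9 to 41.2% of the summed ligand FPKM in EGFR-low and 3.4 to 14.5% in EGFR-high libraries, and HBEGF 4.0 to 10.7% against 28.1 to 47.9%. Counting AREGB with AREG moved the AREG share to 55.4 to 56.2% in EGFR-low and 5.8 to 23.3% in EGFR-high libraries. The summed level of the 6 ligands was 40.1 ± 8.64 FPKM in EGFR-low and 54.8 ± 12.8 FPKM in EGFR-high cells (SD, n = 3). With AREGB added the sums were closer, at 53.4 ± 11.3 and 57.9 ± 11.7 FPKM (SD, n = 3). In EGFR-low cells AREG stood above TGFA without overlap, TGFA overlapped with EREG, and BTC with HBEGF. In EGFR-high cells HBEGF and TGFA overlapped at the top, each above the other ligands without overlap, and EREG, AREG and BTC overlapped in turn.

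With DMSO the HBEGF level was lower in EGFR-low cells. It was at 5.37, 1.37 and 1.61 FPKM in EGFR-low and at 18.7, 33.3 and 13.2 FPKM in EGFR-high libraries, so that the groups did not overlap (69.3% of tested genes did not), and the highest EGFR-low value came from replicate 1, which lay between the populations. The log2 fold change was -2.64 ± 0.521 (SE, limma adjusted p = 0.00153) and the mean was 7.81 times as high in EGFR-high cells. Without both in-between libraries it was -3.39 (adjusted p = 0.000649).

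TGFA, the other high-affinity ligand of high level, was at 12.1, 8.83 and 9.96 FPKM in EGFR-low and at 17.1, 28.3 and 19.8 FPKM in EGFR-high libraries with DMSO. The groups did not overlap, and the log2 fold change was -0.99 ± 0.195 (SE, limma adjusted p = 0.00151) or -1.15 without the in-between libraries (adjusted p = 0.0031). BTC did not separate the populations, with 2.16, 3.84 and 3.35 FPKM in EGFR-low and 3.12, 3.25 and 2.30 FPKM in EGFR-high libraries (log2 fold change 0.07, 95% interval -0.52 to 0.66).

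AREG differed the other way. It was at 20.6, 14.0 and 14.9 FPKM in EGFR-low and at 2.55, 2.38 and 6.81 FPKM in EGFR-high libraries with DMSO, without overlap, the highest EGFR-high value being that of the in-between replicate 3. The log2 fold change was 1.93 ± 0.653 (SE, limma adjusted p = 0.0274) and the ratio of means 4.21. AREG was not called when 1 of 5 of the 6 libraries was left out, namely EGFR-low DMSO replicate 1 (adjusted p = 0.0691), 2 (0.054) or 3 (0.0589), or EGFR-high DMSO replicate 1 (0.0861) or 2 (0.0904), and stayed called without EGFR-high DMSO replicate 3. Without both in-between libraries its log2 fold change was 2.16 (adjusted p = 0.0464), and with AREGB added to AREG it was 2.07 (adjusted p = 0.026). AREGB itself was at 11.1 to 16.3 FPKM in EGFR-low and 1.76 to 5.37 FPKM in EGFR-high libraries.

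EREG, the chromosome 4 neighbour of AREG, overlapped between the populations with DMSO. It was at 9.90, 6.11 and 6.35 FPKM in EGFR-low and at 6.49, 2.36 and 4.85 FPKM in EGFR-high libraries (log2 fold change 0.65, standard error 0.465, 95% interval -0.37 to 1.67, limma adjusted p = 0.26). EPGN was listed at 0 in 5 of the 6 DMSO libraries and at 0.0202 FPKM in the other. Thus 3 of 5 tested ligands were called, 1 higher and 2 lower, where 51.8% of all tested genes were called, 31.1% as higher and 20.7% as lower. The median of all tested genes was 0.12 on this scale and 0.01 after median-of-ratios scaling, by which 50.3 instead of 60.1% of the called genes were higher. The ligands were read against that shift, and the 3 calls were kept under that scaling, at 1.82, -2.74 and -1.11 for AREG, HBEGF and TGFA.

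**Figure D2:**
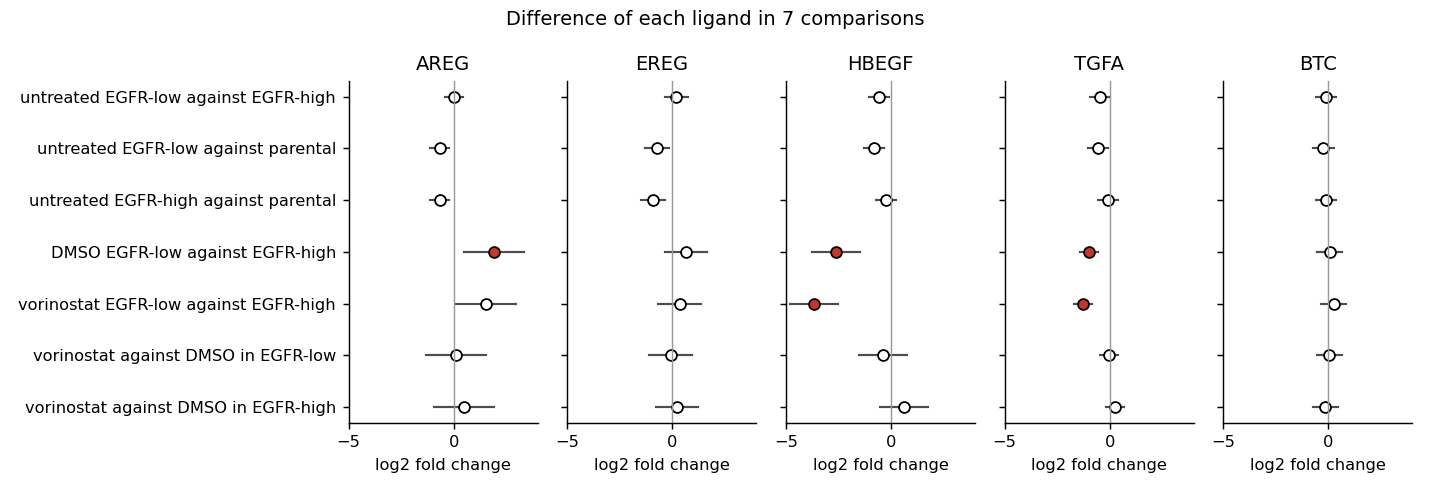
Log2 fold change of each tested EGFR ligand (horizontal axis, on the log2(FPKM + 1) scale, first group minus second) in 7 comparisons, with lines for the unadjusted 95% interval and filled points for a limma adjusted p under 0.05. The filled points are AREG, HBEGF and TGFA in EGFR-low against EGFR-high cells with DMSO and HBEGF and TGFA with vorinostat.

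With vorinostat the populations differed again in HBEGF and TGFA. HBEGF was at 1.86, 1.40 and 1.55 FPKM in EGFR-low and at 35.1, 13.5 and 65.2 FPKM in EGFR-high libraries, a log2 fold change of -3.65 ± 0.521 (SE, limma adjusted p = 0.000129). TGFA was at 9.54, 8.92 and 11.6 FPKM in EGFR-low and at 27.6, 21.0 and 28.7 FPKM in EGFR-high libraries, a log2 fold change of -1.28 ± 0.195 (SE, adjusted p = 0.000194). Both ligands lay lower in EGFR-low cells without overlap, as 23.5% of tested genes did, and without both vorinostat replicates 1 the log2 fold changes were -3.64 and -1.20 (adjusted p = 0.00179 and 0.00272). HBEGF was at -4.23 without EGFR-high vorinostat replicate 2. The spread of HBEGF among EGFR-high libraries was wide, with an SD of 26.0 FPKM around a mean of 37.9 (n = 3).

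AREG with vorinostat was at 38.1, 11.3 and 12.9 FPKM in EGFR-low and at 17.7, 1.36 and 4.99 FPKM in EGFR-high libraries. In both populations the highest value was that of replicate 1, the library with the high mitochondrial share, and the groups overlapped because of it. The log2 fold change was 1.55 ± 0.653 (SE, limma adjusted p = 0.0586). AREG was called with the replicate number as a block (adjusted p = 0.0275), without EGFR-high vorinostat replicate 1 (2.33, adjusted p = 0.00401) and without both replicates 1 (1.80, adjusted p = 0.00907), and its log2 fold change was 0.83 (adjusted p = 0.248) without EGFR-high vorinostat replicate 2 and 1.03 (adjusted p = 0.217) without EGFR-low vorinostat replicate 1. The part of the mitochondrial share in these values was not tested.

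EREG was at 12.98, 4.78 and 5.01 FPKM in EGFR-low and at 8.09, 2.01 and 7.51 FPKM in EGFR-high libraries with vorinostat, replicate 1 being the highest of each group (log2 fold change 0.35, 95% interval -0.66 to 1.37). BTC was at 2.28, 3.68 and 3.72 against 1.29, 2.94 and 3.76 FPKM (0.25, interval -0.34 to 0.84). In all, 2 of 5 tested ligands were called, both lower in EGFR-low cells, where 59% of all tested genes were called and 22.8% as lower. Median-of-ratios scaling moved the median of all genes from 0.16 to 0.01 and the share of higher calls from 61.3 to 50.5%, and HBEGF and TGFA remained called.

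**Figure D3:**
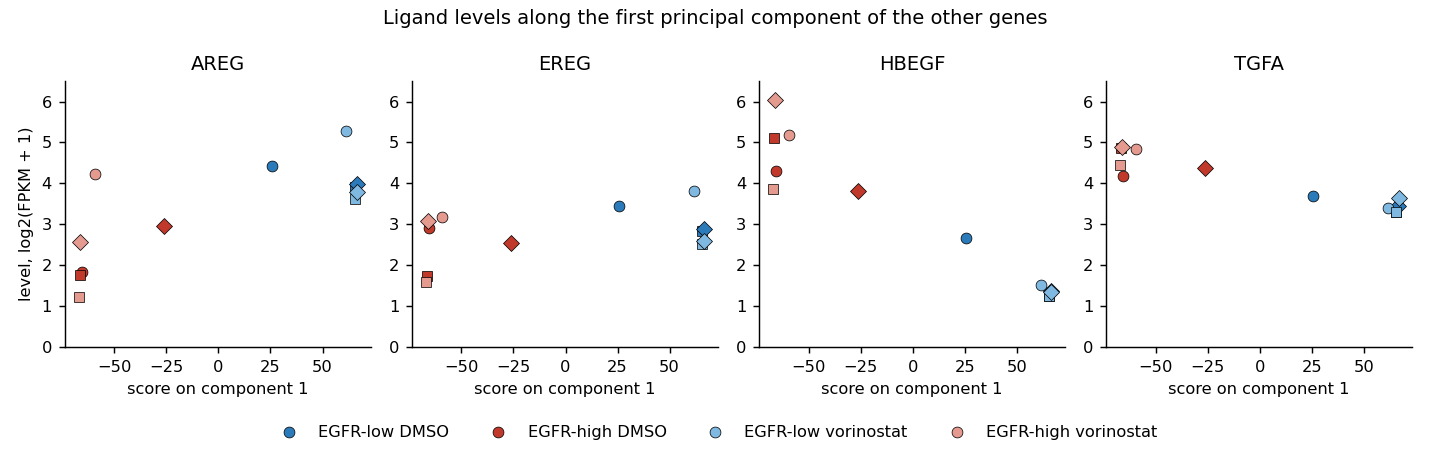
Level of AREG, EREG, HBEGF and TGFA as log2(FPKM + 1) (vertical axis) against the score on the first principal component of the other genes (horizontal axis, no unit) in the 12 libraries of the second experiment, with circles, squares and diamonds for replicates 1, 2 and 3. HBEGF of the in-between EGFR-low DMSO replicate 1 (5.37 FPKM) lies between both populations, whereas its AREG (20.6 FPKM) lies among the EGFR-low libraries.

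Vorinostat against DMSO asks whether the inhibitor alters the ligands within a population. In EGFR-low cells the log2 fold changes of AREG, EREG, HBEGF, TGFA and BTC lay between -0.39 and 0.13, and the groups overlapped for every ligand (9.46% of tested genes did not overlap). The 95% intervals were -1.30 to 1.55 for AREG, -1.53 to 0.75 for HBEGF and -0.46 to 0.39 for TGFA. A change of 1 log2 unit in either direction thus lay outside the interval for TGFA and inside it for AREG. For HBEGF a fall of 1 log2 unit lay inside the interval and a rise of 1 outside it. The HBEGF value of -0.39 rested on EGFR-low DMSO replicate 1, without which it was 0.06. The AREG value of 0.13 rested on EGFR-low vorinostat replicate 1, without which it was -0.40.

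In EGFR-high cells the log2 fold changes with vorinostat were 0.62 for HBEGF (95% interval -0.52 to 1.76), 0.50 for AREG (-0.93 to 1.93), 0.26 for TGFA (-0.17 to 0.68), 0.22 for EREG (-0.80 to 1.24) and -0.14 for BTC (-0.73 to 0.45), and again every ligand overlapped between the groups (5.33% of tested genes did not). Without EGFR-high vorinostat replicate 1 AREG was at -0.27. By limma 0 of 5 ligands and 0% of all genes were called in either population, with 0.94% of genes at an unadjusted p under 0.05 in EGFR-low and 3.34% in EGFR-high cells. The difference between the 2 responses, tested as an interaction, was called for 0 genes (1.76% at an unadjusted p under 0.05), with -1.01 for HBEGF (interval -2.62 to 0.61) and -0.37 for AREG (-2.39 to 1.65).

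Across libraries AREG and EREG correlated at 0.961 over the 9 untreated libraries and 0.793 over the 12 of the second experiment, and HBEGF and TGFA at 0.881 and 0.969 (Pearson r of log2(FPKM + 1), given as a description, since libraries of a group share their treatment and population). AREG and HBEGF correlated at 0.626 in the first experiment and -0.589 in the second. Of 11118 genes tested in both experiments, those whose levels were most like AREG were AREGB (r of 0.997 and 0.999), HDAC9 (0.946 and 0.929) and DMTF1 (0.905 and 0.891). For HBEGF they were TMEM171 (0.943 and 0.934), NALCN (0.932 and 0.893) and MCFD2 (0.901 and 0.892), and for TGFA they were LAYN (0.965 and 0.930), TMEM171 (0.914 and 0.942) and LOXL4 (0.931 and 0.911). EREG was most like HDAC9 (0.858 and 0.803), and BTC most like KRTCAP3 (0.802 and 0.811).

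Of 14 genes listed in the files that RefSeq places between the chromosome 4 ligands or within 500 kb of them, the ligands included, 7 were tested in the second experiment, 4 of them not ligands. Among these 4, MTHFD2L, an enzyme of mitochondrial folate metabolism, was higher in EGFR-low cells with DMSO (log2 fold change 0.89, limma adjusted p = 0.00625). With vorinostat it was at 0.81 (adjusted p = 0.00815). The other 3 reached 1 FPKM in the second experiment almost only in the population where they were high, so their calls there are no support for a difference and their levels are given as a description. PARM1, a membrane mucin and the last gene of the region, had means of 0.421 FPKM in EGFR-low and 4.96 in EGFR-high cells with DMSO and 0.0421 and 6.15 with vorinostat. It was also called lower in untreated EGFR-low against EGFR-high cells (log2 fold change -1.26, limma adjusted p = 0.0159), a call lost when EGFR-high replicate 1 or 3 or EGFR-low replicate 2 or 3 was left out (adjusted p = 0.0545 to 0.0885). The chemokine genes CXCL1 and CXCL2 had means of 1.23 and 2.34 FPKM in EGFR-low against 0.760 and 0.586 in EGFR-high cells with DMSO, and of 1.77 and 4.44 against 0.339 and 0.294 with vorinostat. With these included, 1 of the 4 was called higher and 1 lower with DMSO, where 51.8% of all tested genes were called. With vorinostat 3 were called higher and 1 lower, where 59% of all tested genes were called. Of the 4, only MTHFD2L passed the filter through both populations, so these counts are no result about the region.

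Among the other ligands of the family, NRG1, which acts on ERBB3 and ERBB4, was the single one tested. It reached 1 FPKM in 3 libraries only through EGFR-low cells in both experiments, so its difference is given as a description with no test. Its means were 1.25 ± 0.396 FPKM in EGFR-low and 0.236 ± 0.0746 in EGFR-high cells untreated, and 1.81 ± 0.639 and 0.427 ± 0.531 FPKM with DMSO (SD, n = 3), where EGFR-high DMSO replicate 3, an in-between library, was at 1.04 FPKM. EGF was listed at up to 1.11 FPKM and was tested in neither experiment. NRG2, NRG3 and NRG4 stayed at or under 0.516, 0.0186 and 1.63 FPKM.

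Of 14 tested genes that release and traffic the ligands, 2 were called lower and 0 higher in untreated EGFR-low against EGFR-high cells, beside 3.81% of all tested genes, namely RHBDL2, a rhomboid protease (log2 fold change -1.44, limma adjusted p = 0.00557), and TIMP3, an inhibitor of metalloproteases including ADAM17 (-1.33, adjusted p = 0.0157). RHBDL2 was at 0.482 to 0.840 FPKM in EGFR-low and 2.34 to 4.09 FPKM in EGFR-high libraries. No EGFR-low library reached 1 FPKM for RHBDL2, so it passed the filter only through EGFR-high and parental cells, and its call is limited by this. The call of TIMP3 was lost without any 1 library but EGFR-low replicate 1 (adjusted p = 0.0545 to 0.0719). With DMSO 3 were called higher and 3 lower, 6 of 14 beside 51.8% of all tested genes, with a median of -0.26 beside 0.12 over all genes. RHBDF2, which escorts ADAM17 to the cell surface, was higher (0.69, limma adjusted p = 0.00192). All 3 genes called lower reached 1 FPKM in 3 libraries only through EGFR-high cells in this experiment, so their calls are no support for a difference. TIMP3 was at 46.2 FPKM in the in-between EGFR-low DMSO replicate 1 and at 0.414 and 0.543 FPKM in the other EGFR-low libraries, against 159 to 273 FPKM in EGFR-high libraries. Its log2 fold change of -5.36 became -7.02 without that replicate, -4.56 without EGFR-low DMSO replicate 2 and -4.49 without EGFR-low DMSO replicate 3. The metalloproteases ADAM19 and ADAM12 were at 0.0832 to 2.14 and 0.0225 to 0.413 FPKM in EGFR-low and at 6.47 to 8.42 and 0.911 to 1.89 FPKM in EGFR-high libraries.

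Downstream, of 13 tested ERK response genes 1 was called lower in untreated EGFR-low cells (3.81% of all tested genes were called), FOSL1, an AP-1 subunit (log2 fold change -1.84, limma adjusted p = 0.0184), whose call was lost when EGFR-high replicate 1 or 3 or EGFR-low replicate 2 or 3 was left out (adjusted p = 0.0516 to 0.0911). With DMSO, of 14 tested, 7 were called lower and 3 higher, beside 20.7 and 31.1% of all tested genes, and the median was -1.01 beside 0.12 over all genes. DUSP4 (-2.26, adjusted p = 0.00284), a phosphatase of ERK, and SPRY4 (-2.18, adjusted p = 0.000666), a feedback inhibitor, were lower, and EGR1, an immediate early transcription factor, was higher (2.68, adjusted p = 0.00462). Without both in-between libraries DUSP4 was at -2.93 and EGR1 at 3.41. Of the receptor inhibitors, 1 of 7 was called higher and 2 lower in untreated EGFR-low cells, with ERRFI1, which blocks the EGFR kinase, at -1.27 (adjusted p = 0.00734, or 0.0599 without EGFR-low replicate 1) and the ubiquitin ligase gene CBLB at 1.49 (adjusted p = 0.00672). With DMSO 3 of 8 were called higher and 1 lower, 4 of 8 beside 51.8% of all tested genes, with CBLB at 0.71 (adjusted p = 0.000664). ERRFI1 was not lower in EGFR-low cells with DMSO. It was at 78.7 to 109 FPKM there (mean 93.1) and, overlapping, at 56.5 to 91.1 in EGFR-high cells (mean 75.5). LRIG1, which promotes receptor degradation, passed the filter only through EGFR-low cells and is described by its levels, 1.80 to 2.51 FPKM in EGFR-low and 0.00711 to 0.481 FPKM in EGFR-high libraries with DMSO.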

How the data were processed

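The authors deposited 1 table per experiment, with 1 column per library, under a name that calls the values Cufflinks gene counts. The values were taken as FPKM, in which the authors' software had scaled fragments by transcript length and library size. This unit was inferred, since the deposited values are not whole and sum to 467897 to 592942 per untreated library and 511011 to 582866 in the second experiment. The submitters' processing notes name STAR 2.5.1b, Cufflinks 2.2.1, DESeq2 1.10.1 and hg19, without roles. The kit was the Roche Kapa mRNA Hyper Prep. The number of reads per library is not given in the sources used here.

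In each experiment the tested genes (11305 and 12236) were those reaching 1 FPKM in 3 or more libraries. Models were fitted to log2(FPKM + 1) by limma 3.58.1 (R 4.3.3), with a mean-variance trend, 1 mean per group, no replicate block and Benjamini-Hochberg adjustment over all tested genes. The experiments were fitted separately, and levels set across them were not tested. The study describes replicates as independent experiments. Deviations of same-numbered libraries correlated above 0.1 in every pair for EGFR-low against EGFR-high cells, untreated (0.343 to 0.73) and with vorinostat (0.163 to 0.353). They did so too for vorinostat against DMSO in EGFR-low cells (0.267 to 0.329). The numbers may therefore pair the libraries in these comparisons. The reported fits still used no block, and the block was run only as an alternative.

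The ligands, gene lists and comparisons were chosen with earlier results of these data known. From each other list up to 4 called genes with the largest change were named, and for each ligand the 3 genes with the highest smaller one of 2 correlations were found. The tests were run on simulated data first. Exact permutation tests used scipy 1.17.1 under Python 3.11.15. Promoters came from the RefSeq table of GRCh38.p14, not the build of the files, and no gene coordinates of the files are given. Protein sequences were not analysed here. Alternatives were pseudocounts of 0.1 and 5, no filter, a filter of 5 FPKM, median-of-ratios and quantile scaling, only the compared groups, the replicate block, AREG and AREGB summed, and each library left out in turn. Fits without libraries that stand apart were added after the data had been seen.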

Additional observations from a re-analysis of the deposited data

Results flagged for a closer look

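For 4 of 52 listed genes of the pathway the EGFR-low and EGFR-high libraries did not overlap and stood in opposite order in the 2 experiments. The difference between the experiments was not tested. Of the 43 of these genes tested in both experiments 3 did so (6.98%), and of all 11118 genes tested in both 646 did (5.81%), so the share in the pathway lay near that of all genes. ADAM17, the main protease that releases AREG, HBEGF and TGFA, had an EGFR-low mean 8.22 FPKM above that of EGFR-high cells untreated, and with DMSO the difference was -7.09 FPKM. ADAM12, a related protease, differed by 10.8 and -1.33 FPKM. The ERK response gene SPRED2 differed by -8.32 and 8.68 FPKM. EGR1, the 1 of the 4 that did not pass the filter untreated, differed by -0.527 and 28.5 FPKM, so its untreated order rests on low values. None of the 6 ligands stood in opposite order without overlap.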

How the results depend on the processing

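HBEGF and TGFA kept direction and call in EGFR-low against EGFR-high cells, with DMSO and with vorinostat, under every alternative run. The log2 fold change of HBEGF ran from -3.39 to -1.75 with DMSO and from -4.23 to -2.50 with vorinostat, and that of TGFA from -1.15 to -0.79 and from -1.44 to -1.03. The AREG call with DMSO was also lost without the filter on low values (adjusted p = 0.0571). In untreated EGFR-low against parental cells the count of called ligands moved from 0 to 1 with the replicate block (HBEGF, -0.82, limma adjusted p = 0.0292), where the numbers were not shown to pair the libraries (-0.092 to 0.587). Apart from that and the vorinostat call of AREG, the block changed no call of a ligand.

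Several differences that were never called turned sign, and the cause was not tested. BTC with DMSO, EGFR-low against EGFR-high, was at -0.029 with median-of-ratios and -0.063 with quantile scaling. With 1 library left out it ran from -0.059 to 0.25, and with vorinostat from -0.055 to 0.47, where EREG ran from -0.16 to 0.63. Untreated, AREG ran from -0.12 to 0.12 and BTC from -0.33 to 0.012. For vorinostat against DMSO in EGFR-low cells, leaving out 1 library gave -0.40 to 0.44 for AREG, -0.49 to 0.15 for EREG, -0.65 to 0.062 for HBEGF, -0.13 to 0.078 for TGFA and -0.14 to 0.21 for BTC. In EGFR-high cells it gave -0.27 to 1.22 for AREG, -0.11 to 0.74 for EREG and -0.36 to 0.16 for BTC. For the difference between the responses it gave -1.09 to 0.40 for AREG, -0.81 to 0.028 for EREG and -0.12 to 0.41 for BTC.

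In EGFR-low cells without both in-between libraries, vorinostat against DMSO was at 0.12 for EREG, 0.062 for HBEGF, 0.078 for TGFA and -0.14 for BTC. Without both vorinostat replicates 1 AREG was at -0.40, and without all 4 libraries AREG was at -0.24 and TGFA at 0.11. In EGFR-high cells without both replicates 1 it was at -0.27 for AREG, -0.060 for EREG and 0.16 for BTC, and without all 4 BTC was at 0.051 (-0.015 in the difference between the responses).

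Counts over all genes moved more. Untreated EGFR-low against EGFR-high gave 431 called genes, 660 without the filter, 206 with the filter of 5 FPKM, 965 with the block and 174 to 286 with 1 library left out. EGFR-low against parental gave 181, 331, 82, 525 and 33 to 254, or 107 with only the compared groups. EGFR-high against parental gave 8, 15 without the filter, 3 with the filter of 5 FPKM, 2 with only the compared groups and 2 to 8 with 1 library left out. Without the filter 1 gene was called for vorinostat against DMSO in EGFR-low cells and 1 for the difference between the responses.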
